A study of Homo sapiens with 7 samples.

Results

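The olfactory receptor genes of chromosome 11 were examined as a set of genes expected to be closed outside the olfactory epithelium. Members were all protein-coding genes on chromosome 11 whose RefSeq symbol consists of OR, a family number, subfamily letters and a member number. The rule gave 171 genes out of 19974 protein-coding genes. The positions of OR8U8, OR8U9 and OR9G9 in the gene table were unusable, because they break the order of the chromosome, so 168 genes entered all counts, out of 19839 genes with a usable position. The rule used names and positions only and no measured value.

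Olfactory receptors are G protein-coupled receptors that bind odorants in the cilia of olfactory sensory neurons. Each such neuron expresses a single receptor gene from a single allele, and its remaining receptor genes are packed into compact heterochromatin. Class I receptors (families OR51 to OR56) form a single large cluster on chromosome 11, on both sides of the beta-globin genes, and class II receptors are spread over many clusters.

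ATAC-seq, which marks open DNA by insertion of adapters with the transposase Tn5, was applied to LUHMES cells, an established human midbrain precursor line of WT genotype, differentiated for 6 days into neurons labelled dopaminergic. In 4 libraries (stressed 6, 7, 8 and 9, numbered by differentiation) the cells received 25 µM antimycin A, an inhibitor of respiratory complex III, with 10 µM oligomycin, an inhibitor of ATP synthase, for 8 h. In the other 3 libraries (vehicle 6, 7 and 8) they received DMSO. All libraries come from the same cell line, so they are batches of differentiation and not different donors.

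The deposited lists of accessible regions differed widely in length. Stressed 6, stressed 7 and vehicle 8 held 188516, 248900 and 159902 regions, and the remaining 4 lists held 32828 to 55533. The sources used here give no read totals. The background pileup of each library, recovered from its folds as a guide to depth, ran from 0.492 (vehicle 6) to 5.99 (stressed 7). Stressed 7 and stressed 6, with the longest lists, had the highest values, 5.99 and 2.18. List length did not follow this guide throughout. Vehicle 8, with 159902 regions, had a background of 1.434, and stressed 9, with 53063 regions, had 1.499. Among neuronal markers 11 to 14 of 14 had a region within 1 kb of an end in every library and kind of list, including MAP2, SNAP25 and STMN2. Of 14 dopaminergic markers, 6 or 7 had one in each equal-size list, the 32828 regions of highest fold enrichment in each library. NR4A2, PITX3, EN1 and RET were among them in all 7 libraries, and TH, DDC, SLC18A2 and ALDH1A1 were in none. Among markers of other cell types, 1 to 5 of 10 glial, 0 to 3 of 10 mesenchymal and endothelial and 0 or 1 of 6 blood markers had a region in these lists. Their part in the receptor results was not tested.

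Most of these receptor genes lack the CpG-rich sequence that marks many human promoters. The 250 bases upstream of the start are shown for 4 genes (RefSeq, GRCh38.p14, 5′ to 3′ on the strand of the gene, CpG in capitals). OR52N2 (chr11:5808674-5808923, plus strand) and OR5A2 (chr11:59426414-59426663, minus strand) had a region near the start in all 7 libraries. OR52K1 (chr11:4482396-4482645, plus strand) had its strongest region at the other end of the gene. OR56B1 (chr11:5736198-5736447, plus strand) had weak regions whose position moved between libraries.
OR52N2: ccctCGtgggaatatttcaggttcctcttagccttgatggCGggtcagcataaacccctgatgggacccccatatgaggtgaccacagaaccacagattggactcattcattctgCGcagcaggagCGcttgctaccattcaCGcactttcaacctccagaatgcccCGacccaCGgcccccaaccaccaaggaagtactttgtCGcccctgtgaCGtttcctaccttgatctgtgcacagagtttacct
OR5A2: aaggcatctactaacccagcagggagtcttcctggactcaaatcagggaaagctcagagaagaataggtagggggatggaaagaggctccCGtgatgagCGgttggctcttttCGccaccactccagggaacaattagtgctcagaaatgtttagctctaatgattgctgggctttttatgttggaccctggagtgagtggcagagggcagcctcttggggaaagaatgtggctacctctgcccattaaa
OR52K1: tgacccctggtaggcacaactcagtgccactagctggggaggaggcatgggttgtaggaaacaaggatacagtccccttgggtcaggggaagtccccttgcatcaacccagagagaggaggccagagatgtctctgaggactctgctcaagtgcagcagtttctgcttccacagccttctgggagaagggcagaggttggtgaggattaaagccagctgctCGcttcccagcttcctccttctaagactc
OR56B1: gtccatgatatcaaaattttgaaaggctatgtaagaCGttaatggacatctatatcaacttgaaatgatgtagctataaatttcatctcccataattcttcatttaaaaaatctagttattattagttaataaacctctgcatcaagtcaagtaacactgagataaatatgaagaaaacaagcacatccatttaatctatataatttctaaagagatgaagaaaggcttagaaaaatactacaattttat

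OR52N2 has 9 CpG in this window, the highest number among the 138 upstream windows of 135 receptor genes that matched the sequence table. OR5A2 has 3, and OR52K1 and OR56B1 have 1 each. Over the receptor windows the median was 1 CpG and a GC content of 36.4%, and over 21830 windows of all other protein-coding genes it was 17 CpG and 62.4%. GC content reached 54% in OR52N2, 50.4% in OR5A2 and 56% in OR52K1, and was 26.8% in OR56B1. The homeodomain motif TAATTA, searched on both strands, was present in 23.2% of receptor windows and 2.90% of the others, and TAATGA in 26.1% and 5.57%. The palindromic core motif of EBF factors was present in 1.45% and 1.22%. TAATGA occurred 92 bases upstream of the start in OR5A2. These matches describe letters in the window and are not evidence of binding. TAATTA and TAATGA consist mostly of A and T, and receptor windows had the lower GC content. The shares were not adjusted for it, and an excess beyond base composition was not tested.

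In the deposited lists the share of receptor genes with an accessible end varied widely between libraries of the same treatment. A gene was counted when a region overlapped the 1 kb around either of its ends. This held for 58, 88, 10 and 12 of the 168 genes in stressed 6, 7, 8 and 9, and for 15, 5 and 49 genes in vehicle 6, 7 and 8. The 3 long lists gave the 3 high counts. Stressed 6 and 7 lay above every vehicle library, vehicle 7 lay below every stressed one, and the remaining 4 libraries fell between. The mean share was 25.0% ± 22.5 (SD, n = 4) in stressed and 13.7% ± 13.7 (SD, n = 3) in vehicle libraries, a difference of 11.3 percentage points, which is smaller than the SD of either group. Without stressed 7 the difference was 2.18 points. All other protein-coding genes stood at 74.6% ± 7.66 (SD, n = 4) and 65.0% ± 11.4 (SD, n = 3).

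When each library was reduced to its 32828 strongest regions, the receptor genes were almost uniformly without an accessible end. The counts were 5, 5, 5 and 8 of 168 in stressed 6, 7, 8 and 9 and 8, 5 and 6 in vehicle 6, 7 and 8, so that the groups covered the same range. The mean share was 3.42% ± 0.893 (SD, n = 4) in stressed and 3.77% ± 0.909 (SD, n = 3) in vehicle libraries. The difference of -0.35 percentage points was smaller than the SD of either group. Other protein-coding genes kept 64.0% ± 1.96 (SD, n = 4) and 57.5% ± 2.64 (SD, n = 3), with no overlap between the treatments. This difference of 6.48 points became -6.73 points when lists were cut to equal total span. Its direction therefore depends on how the lists were made equal. The share of receptor genes fell by far more than that of other genes when stressed 7 was cut to regions of at least 6.00-fold. It went from 52.4% to 2.98%, against 82.6% to 66.6% for other genes. Lists of equal length were not cut at equal strength. The lowest −log10 p kept was 20.9, 21.0 and 18.2 in stressed 6, stressed 7 and vehicle 8, and 4.37 to 6.26 in the other libraries.

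**Figure D1:**
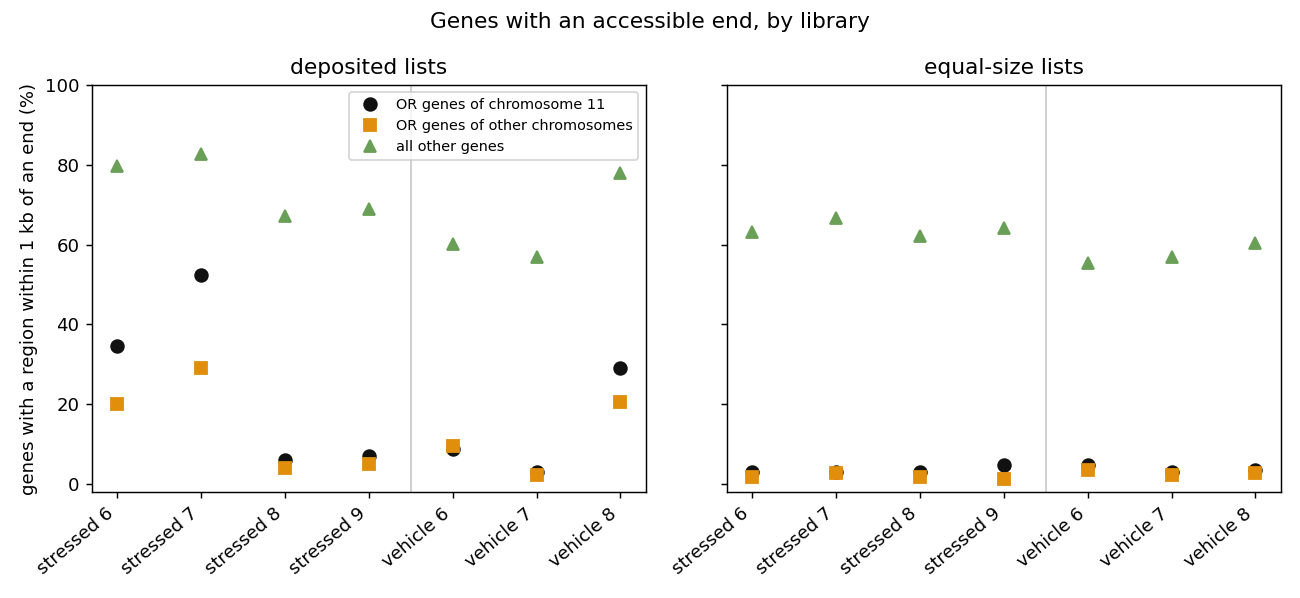
Percent of genes with a region within 1 kb of an end in each of the 7 libraries, for olfactory receptor (OR) genes of chromosome 11, OR genes of other chromosomes and all other protein-coding genes, in deposited lists (left) and in lists of 32828 regions (right); each point is 1 library. Receptor genes of chromosome 11 span 2.98% to 52.4% on the left and 2.98% to 4.76% on the right.

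The same genes were followed as each list was extended from its strongest to its weakest region. Among the 1000 strongest regions of each library, 0 receptor genes were reached in all 7 libraries. Among the 10000 strongest, 0 to 5 receptor genes were reached, when 41.3% of other genes had already been reached in stressed 7 and 34.0% in vehicle 8. Receptor genes accumulated late. In stressed 7 the number was 8 at 53063 regions, 19 at 75000, 30 at 100000, 51 at 150000 and 88 at the full length. In vehicle 8 it was 7 at 53063 regions, 19 at 100000, 43 at 150000 and 49 at the full length, and in stressed 6 it was 7, 18, 41 and 58 at those points. At 53063 regions the counts in the libraries that hold that many were 7, 8, 9 and 12 in stressed 6 to 9 and 15 and 7 in vehicle 6 and 8. The libraries of the 2 treatments were interleaved at this length, with vehicle 6 highest.

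**Figure D2:**
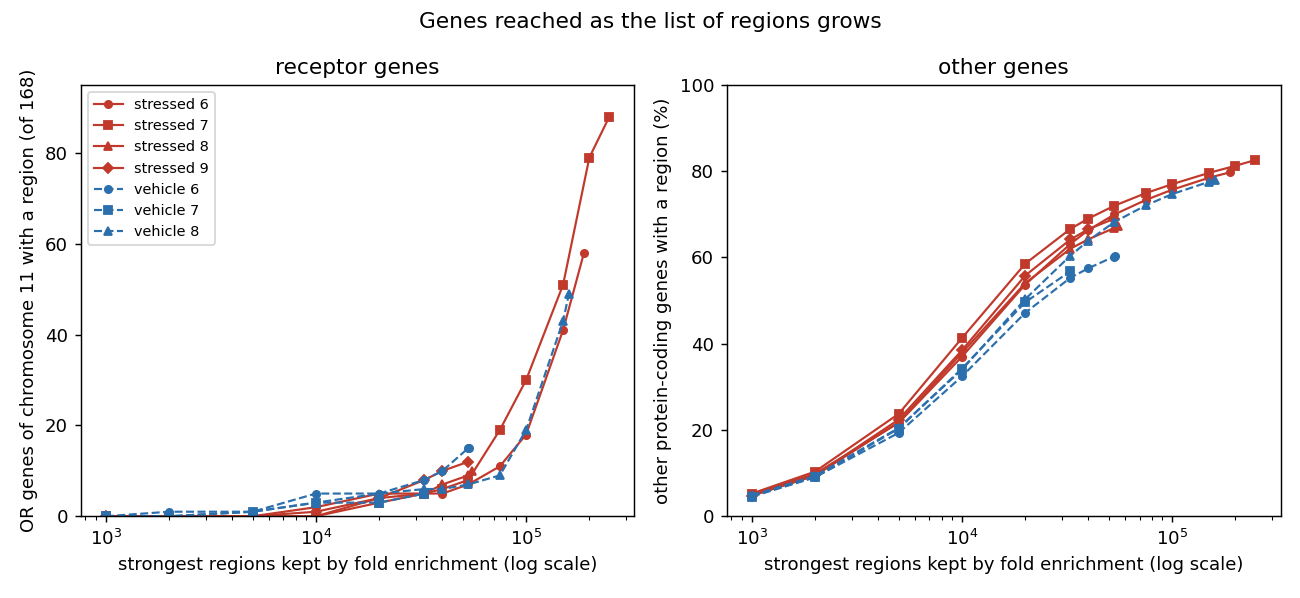
Receptor genes of chromosome 11 with a region at an end (left, of 168) and percent of other protein-coding genes with one (right) against the number of strongest regions kept, on a log axis, 1 line per library. Receptor genes stay at 15 or fewer up to 53063 regions and climb in the 3 long lists to 49, 58 and 88, where the other genes flatten.

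Regions at receptor ends were weak within their own library. Fold enrichment is the authors' value for the summit over background and was compared here only inside a library. The median at receptor ends was 3.77, 2.86, 4.41 and 4.80 in stressed 6, 7, 8 and 9 and 4.69, 6.52 and 3.70 in vehicle 6, 7 and 8. At the ends of other genes it was 12.3, 9.15, 7.16 and 7.60, and 8.04, 7.45 and 12.3. Receptor ends had the lower median in all 7 libraries, and in 5 of them the median also lay below that of all regions, the exceptions being stressed 9, where both were 4.80, and vehicle 7. In stressed 7, 119 of the 125 regions at receptor ends were under 5-fold. The regions at receptor ends in vehicle 7 numbered 6, so its median rests on few values. In no library did a region at a receptor end also lie at the end of a protein-coding gene that is not a receptor gene. Genes of other kinds were not examined. By contrast, 12 receptor genes share an end window with another receptor gene and can be counted from the same region.

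**Figure D3:**
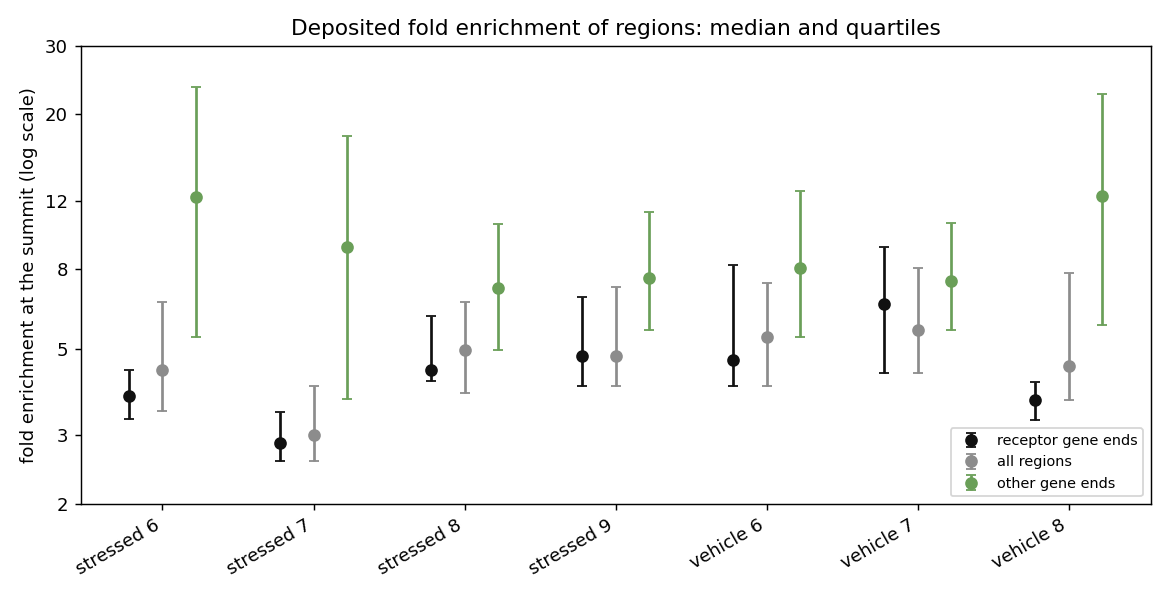
Deposited fold enrichment (log axis) of regions at receptor gene ends, of all regions and of regions at other gene ends in each library; points are medians and bars the lower and upper quartile. Receptor ends lie below other gene ends in every library, at 2.86 against 9.15 in stressed 7.

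Regions at receptor ends were compared by position between libraries. Of 75 regions at receptor ends in stressed 6, 70.7% overlapped a region of stressed 7 and 40% one of vehicle 8, against 93.9% and 84.9% of regions at other gene ends and 74.2% and 53.7% of all regions. Of 61 regions in vehicle 8, 50.8% overlapped a region of stressed 6, against 90.2% at other gene ends and 63.3% of all regions. The longer a list, the more of any region it overlaps, and these values carry no test. Over the deposited lists 109 of 168 genes had a region in at least 1 library, 84 of them in long lists only. A single library accounted for 45 genes, of which 26 came from stressed 7, and 59 genes had no region in any library. In the equal-size lists 13 genes had a region in at least 1 library, and 155 had none. For comparison, 51.1% of other protein-coding genes had a region in all 7 deposited lists, against 1.79% of receptor genes.

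The receptor genes differed among themselves by class and position. The members fall into 5 clusters on hg38, defined by gaps of at most 1 Mb, and 3 genes outside them (OR4C12, OR4C13 and OR2AT4) had no region in any library. The largest cluster, at chr11:4367263-7941708, holds 67 receptor genes, 55 of them class I. In equal-size lists its count was 3, 3, 4 and 6 in stressed and 5, 3 and 4 in vehicle libraries. The cluster at chr11:54603069-56989843 holds 48 class II genes, and its count was 0 in every equal-size list. It was also 0 in the deposited lists of stressed 9, vehicle 6 and vehicle 7, and at most 15, in stressed 7. The cluster at chr11:123753580-124571374 (22 genes) had 0 in every equal-size list as well and at most 14 in a deposited list. The clusters at chr11:58023881-59713845 (21 genes) and chr11:48216810-48489722 (7 genes) reached at most 2 in an equal-size list. Over all members, class I genes had a region in 7.27% ± 2.57 (SD, n = 4) and 7.27% ± 1.82 (SD, n = 3) of cases in stressed and vehicle equal-size lists, and class II genes in 1.55% ± 0.442 (SD, n = 4) and 2.06% ± 0.511 (SD, n = 3). The lowest class I share, 5.45%, lay above the highest class II share, 2.65%. Few genes carry this: 9 of 55 class I and 4 of 113 class II genes had a region in any equal-size list. Libraries count the same genes again, so the SDs describe libraries and not genes, and the classes were not tested.

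Other genes inside the same clusters often had an accessible end. The 61 protein-coding genes between the receptor genes had a region in 56.1% ± 6.33 (SD, n = 4) of cases in stressed and 57.9% ± 2.50 (SD, n = 3) in vehicle equal-size lists. Of these genes 43 lay in the largest cluster and 14 in that at chr11:58023881-59713845. The remaining clusters, including the one with 48 class II genes, held 2 or 0 each, so the shares say little about them. The number of regions per Mb inside the clusters, divided by that of the rest of chromosome 11, was 0.669 to 0.821 in stressed and 0.847, 0.855 and 1.12 in vehicle equal-size lists. The groups did not overlap in this ratio, which was not tested. In the deposited lists they did, at 0.700 to 1.199 and 0.847 to 1.23. The cluster with 48 class II genes held 0 to 2.09 regions per Mb in the equal-size lists, against 17.3 to 26.6 in the largest cluster. The beta-globin genes (HBB, HBD, HBG1, HBG2 and HBE1), which encode the beta-like chains of haemoglobin and lie within the largest cluster, had a region in 0 of 7 equal-size lists. In the deposited lists all 5 had one in at least 2 libraries, at no more than 4.11-fold.

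Other gene families restricted to few tissues had shares of 0% to 11.7% per library in the equal-size lists. Receptor genes of other chromosomes (219 genes) stood at 1.94% ± 0.575 (SD, n = 4) in stressed and 2.89% ± 0.698 (SD, n = 3) in vehicle equal-size lists. Taste receptors (27 genes) stood at 4.63% and 4.94%, beta defensins (39 genes) at 1.28% and 0.855%, and keratin-associated proteins (94 genes) at 9.57% and 8.87%. The 6 trace amine receptors and 3 vomeronasal receptors had no region in any equal-size list. Since receptor genes are short (median 1103 bp), both end windows often merge and offer less sequence, and 3695 other genes no longer than the upper quartile of the receptor genes were examined too. Their share was 47.7% ± 1.61 (SD, n = 4) and 41.1% ± 2.78 (SD, n = 3). Per base of window, regions of the equal-size lists covered 0.300% to 0.969% at receptor genes and 10.2% to 27.5% at other genes.

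**Figure D4:**
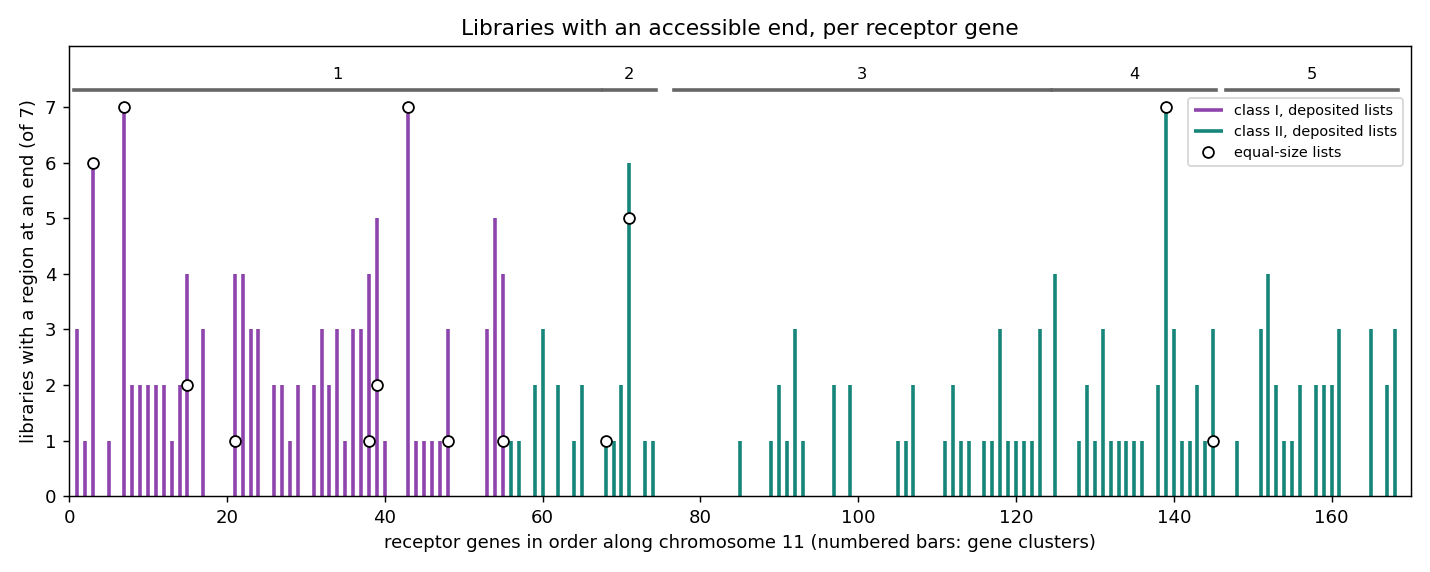
Number of libraries (of 7) with a region at an end for each of the 168 receptor genes in order along chromosome 11; bars are deposited lists (class I purple, class II green), open circles equal-size lists where above 0, and grey bars mark the 5 clusters. Only 5 genes have circles at 5 or more, and the third cluster has none.

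A small group of receptor genes was accessible throughout. OR51D1, OR52N2 and OR5A2 were open at an end in all 7 libraries, in deposited and equal-size lists. OR52K1 had one in 6 deposited and 6 equal-size lists and OR4S1 in 6 and 5, both with none in vehicle 7. These 5 genes make up most of the equal-size counts: the mean share over all libraries was 3.57% with them and 0.876% without them. Each encodes an odorant receptor, class I for OR51D1, OR52N2 and OR52K1 and class II for OR4S1 and OR5A2. They were named by a rule on their presence, so their presence is described and not tested.

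At OR52N2 (chr11:5808924-5821483, plus strand) the fold enrichment was 25.2, 12.01, 7.71 and 7.20 in stressed 6, 7, 8 and 9 and 12.1, 9.31 and 21.0 in vehicle 6, 7 and 8. The summits lay at chr11:5808617 to 5808661, 263 to 307 bp upstream of the start, and 167 of the 250 upstream bases printed above were inside the region of every library. At OR5A2 (chr11:59416969-59426413, minus strand) the values were 16.4, 13.2, 5.51 and 8.81, and 19.4, 13.0 and 27.9. The summits lay 12 to 133 bp upstream of the start, and 192 of the printed bases were inside every region. At OR51D1 (chr11:4637477-4643060) they were 19.2, 12.7, 4.96 and 6.80, and 10.7, 8.69 and 23.8, with summits 365 to 441 bp outside the lower end. Its strand was not in the sequence table, so the end was not assigned to start or stop.

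OR52K1 (chr11:4482646-4493497, plus strand) had its strongest region at the end opposite the start, with the summit 86 to 131 bp inside the gene. In stressed 6 and 7 a region also lay at the start. The fold enrichment was 20.1, 11.2, 7.71 and 7.60 in stressed libraries and 9.38 and 18.1 in vehicle 6 and 8. OR4S1 (chr11:48306223-48307152) had its region 763 to 780 bp beyond its upper end, with 14.2, 6.15, 4.41 and 4.80 in stressed libraries and 10.1 and 13.6 in vehicle 6 and 8. The summits of these 5 genes stayed within 17 to 121 bp across libraries, for OR4S1 and OR5A2 at the extremes. OR51L1, with 4 libraries and 1 equal-size list, also kept its summit within 48 bp, about 880 bp inside its far end in 3 libraries and 927 bp in vehicle 6.

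The ranks of these regions within lists of equal length were compared between treatments. OR5A2 ranked 13203, 10563, 20596 and 8281 of 32828 in stressed 6, 7, 8 and 9 and 1579, 2044 and 4506 in vehicle 6, 7 and 8, where rank 1 is the strongest. Every vehicle library ranked it higher than every stressed library, with mean ranks of 2710 ± 1573 (SD, n = 3) and 13161 ± 5349 (SD, n = 4). OR51D1 ranked 10183, 11152, 26013 and 14277 in stressed and 6869, 6601 and 6521 in vehicle libraries, again without overlap. OR52N2 ranked 6084, 12230, 10106 and 12696, and 5330, 5561 and 8520, with overlap. Among the 9283 genes with a region in all 7 equal-size lists, 2.21% ranked higher in every vehicle library and 9.2% in every stressed library. The exact permutation test over all 35 assignments, two-sided, gave p = 0.0571 for OR5A2, 0.0857 for OR51D1 and 0.114 for OR52N2. After Benjamini-Hochberg adjustment over 9283 genes these became 0.462, 0.506 and 0.545, and 0 of these genes passed at an adjusted 0.05, with 701 under 0.05 unadjusted. None of the 3 differences passed after adjustment. The smallest p that 35 assignments can give was 0.0286, which passes only if most of the 9283 genes reach it. The adjusted test therefore cannot decide whether these ranks differ. Ranks are relative to the other regions of the same list: the median rank of other genes was 5096 to 5772 in stressed and 6277 to 6869 in vehicle libraries.

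**Figure D5:**
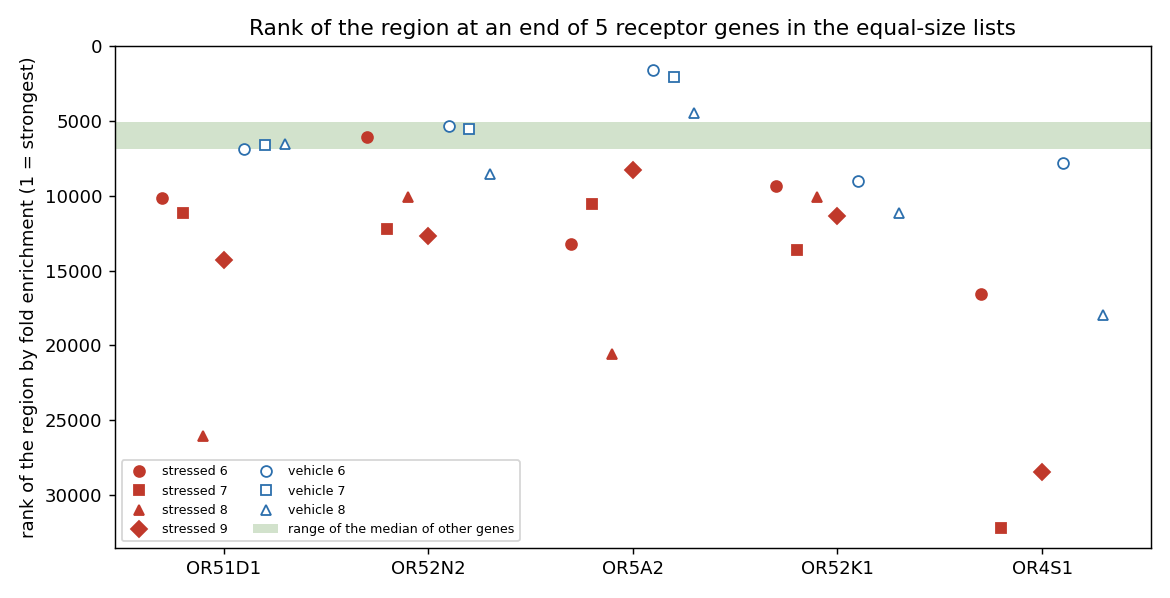
Rank by fold enrichment (1 is the strongest of 32828, axis inverted) of the region at an end of 5 receptor genes in the equal-size lists, 1 point per library that has one; the green band spans the median rank of other genes over libraries. For OR51D1 and OR5A2 the 3 vehicle points lie above the 4 stressed points, and the 5 genes lie mostly below the band.

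The other receptor genes with repeated regions had weaker and less fixed ones. OR56B1 and OR52B2 had a region in 5 libraries, at 3.70 to 4.80-fold and 3.00 to 4.403-fold. Their summits were spread over 453 and 847 bp, so that no base was shared by all regions of either gene. At OR52B2 the summits fell on both sides of the start and, in stressed 9, nearer to the other end. OR51T1, OR52J3, OR52N4, OR52W1, OR9Q1 and OR10S1 had regions in 4 libraries, at no more than 9.04-fold, a value reached by OR51T1 in vehicle 8. OR51I2, OR52B6, OR56A3, OR10A2, OR9G4 and OR10V1, named for the number of their lists, had regions in 3 libraries, at 2.72 to 6.60-fold. Of the 135 genes with a known strand, 74 had a region at the start and 70 at the other end in at least 1 library, and a region between the ends of a short gene counts at both.

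No receptor gene passed the test of presence between treatments. Fisher's exact test on presence per library, adjusted by Benjamini-Hochberg over 19839 genes, called 0 of 168 receptor genes in deposited and in equal-size lists, where the background was 0% of all genes. At an unadjusted p under 0.05 it also called 0 receptor genes, against 0.106% of all genes in deposited and 0.595% in equal-size lists. The smallest p among receptor genes was 0.143, with an adjusted p of 1, and the smallest that 4 against 3 libraries can give was 0.0286. That value passes adjustment only if most of the 19839 genes reach it, so the absence of calls does not show equal presence. Presence in a larger share of stressed than of vehicle libraries was found for 80 receptor genes (47.6%) in deposited lists, where the background was 29.5%, and for 5 (2.98%) in equal-size lists, where it was 19.4%. The opposite direction held for 26 (15.5%) against 4.83%, and for 5 (2.98%) against 4.59%. A gene present in all libraries or in none can lean neither way. In deposited lists 51.1% of other genes were present in all 7, against 1.79% of receptor genes. In equal-size lists 92.3% of receptor genes were present in 0, against 28.0% of other genes. These shares and their backgrounds are therefore not directly comparable. The longest 2 lists are both from stressed cells. Without the 3 long lists the difference in share was 0.595 points in the deposited lists, against 9.57 over other genes. With 1 threshold of 9.04-fold for all libraries it was -1.24 points, against 6.44 over other genes. Such a threshold is not equally strict in every library. At 8-fold, 65.0% of other genes kept a region in stressed 6 and 35.5% in stressed 8, and 62.7% in vehicle 8 and 30.6% in vehicle 7.

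OR5M10 and OR8B4 were open at an end in 3 stressed libraries and 0 vehicle libraries in the deposited lists, 1.19% of receptor genes against 0.726% of all genes. In equal-size lists 0 receptor genes had this pattern, against 1.72%. Both lacked a region in stressed 9. Their fold enrichments were 3.77, 2.57 and 3.85 for OR5M10 and 3.14, 2.72 and 4.41 for OR8B4 in stressed 6, 7 and 8, and neither was in an equal-size list. OR51T1 was in the equal-size lists of 0 stressed and 2 vehicle libraries, against 0.176% of all genes with such a pattern. In deposited lists 0 receptor genes had it, against 0.0554%, and OR51T1 had a region in 2 libraries of each treatment. None of these patterns can pass the test at this number of libraries.

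Genes that act with the receptors were examined as well. Of 17 genes of olfactory signalling and receptor export, 8 or 9 had a region in stressed and 5 to 9 in vehicle equal-size lists. GNAL, the G protein subunit coupled to odorant receptors, RIC8B, its exchange factor, and REEP1, which helps receptors to the cell surface, had one in all 7. CNGA4, a subunit of the odorant-gated channel, did too, at 28.8 to 99.4-fold. Its end lies 157 bp from that of FHIP1B, so this region cannot be assigned to either gene. OMP, CNGA2, CNGB1, GNG13, STOML3 and RTP2, most of them markers of mature olfactory sensory neurons, had none in the equal-size lists. Of 8 listed markers of these neurons, CNGA4 among them, 1 or 2 had a region in stressed and 1 to 3 in vehicle equal-size lists. ANO2 had one in 4 of these lists and RTP1 in 1. In deposited lists OMP and GNG13 had one in 4 libraries each. Of 16 regulators of receptor choice and silencing, 14 or 15 had a region in stressed and 13 or 14 in vehicle equal-size lists. LHX2, LDB1, EBF1, EBF2 and EBF3, which act at receptor enhancers, and KDM1A, CBX5, TRIM28 and LBR, which act on heterochromatin or its demethylation, had one in all 7, and EHMT2, a histone H3 lysine methyltransferase, had one in none.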

How the data were processed

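Members and gene lists were chosen with earlier results of these data known. ATAC-seq peaks were called with MACS2 for each library alone, per the file headers. The submitters' processing notes name FastQC, Bowtie2, Picard and the build hg38, with no version. The sources used here give neither the caller's settings nor any shift of reads for Tn5, and these would change the number and width of regions. Each deposited list gives for each region a score, a ratio (fold enrichment of the summit over background) and −log10 p and −log10 q, all computed by the authors' caller; no values were pooled across replicates.

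Chromosomes 1 to 22 and X were kept. Equal-size lists held the 32828 regions of highest fold enrichment, the length of the shortest list, with ties ordered by −log10 p, width and position. At that limit 1133 to 9516 regions were tied per library. Folds equal (pileup + 1) divided by (background + 1) with 1 background per library, with 100% of pileups whole within 0.02. Gene ends came from RefSeq on GRCh38.p14, which matches the files' hg38, and coordinates are 1-based. An overlap needed 1 bp. Out of 19974 genes, 135 broke the order of their chromosome and were left out.

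Presence per gene was compared with a two-sided Fisher's exact test and Benjamini-Hochberg adjustment over 19839 genes. Shares over the receptor genes are described without a test. The rule for named genes took receptor genes with a region in at least 4 equal-size lists, the 20 with the most deposited lists, and those in at least 3 stressed and 0 vehicle, or 0 stressed and at least 2 vehicle libraries. Nothing but the differentiation number says how replicates arose, so p-values measure the spread between these libraries. The comparison of ranks was added after the data were seen. Python 3.11.15, numpy 2.4.6, pandas 2.3.3, scipy 1.17.1 and matplotlib 3.10.9 were used, and the overlap, test and recovery functions were tested on simulated data.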

Additional observations from a re-analysis of the deposited data

Results flagged for a closer look

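In 6 sets of genes, 1 of the 4 stressed libraries stood far from the other 3 relative to their range. In each of the 6 sets the other 3 stressed libraries had the same count, so any differing count was flagged. A chance rate of about 1 in 20 groups holds for continuous values and not for such small counts. In all, 43 groups were examined, many of them sets of few genes with overlapping members. In equal-size lists, stressed 9 had 4.76% of the receptor genes of chromosome 11 with a region, against 2.98% in each of the other stressed libraries, a difference of 3 genes. Class II genes gave 0.885% in stressed 8, which is 1 gene, against 2 genes in each of the others. The cluster of 7 genes gave 0% in stressed 8 in equal-size lists and 71.4% in stressed 7 in deposited lists. Taste receptors gave 7.41% in stressed 9 in equal-size lists, which is 2 of 27 genes. Trace amine receptors gave 16.7% in stressed 7 in deposited lists, which is 1 of 6 genes.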

How the results depend on the processing

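The deposited mean share (20.2%) was 27.7% with windows of 2500 bp, 5.27% when the region had to overlap the end itself, 6.46% at a −log10 q of at least 5 and 1.87% with 1 fold threshold for all libraries. The SD of the deposited share over all 7 libraries, both treatments together, was 18.8. The mean share in equal-size lists (3.57%) moved to 4.59% with windows of 2500 bp, 1.62% when the region had to overlap the end itself, 2.30% with lists of 16414 regions, 1.62% with lists of equal total span, 5.75% with lists of 53063 regions in 6 libraries and 0.876% without the 5 recurrent genes. The difference between treatments in equal-size lists (-0.35 points) became -1.69 with lists of equal span and 0.645 with all regions tied at the limit dropped, 0.0496 when the region had to overlap the end, and -0.25 with all ties kept. Over other genes this difference was 6.48 points in equal-size lists and -6.73 with lists of equal span. Leaving out 1 library at a time gave 2.18 to 19.0 points for the deposited difference (lowest without stressed 7, highest without vehicle 8, 17.7 and 17.3 without stressed 8 and 9 and 5.95 without vehicle 7), -0.79 to 0.149 for the equal-size difference (above 0 without vehicle 6), 14.8% to 23.02% for the deposited mean share and 3.37% to 3.67% for the equal-size one. In deposited lists the difference was -1.24 points with 1 fold threshold for all libraries and 0.595 without the 3 long lists, where the mean share was 6.25%. Over other genes these differences were 6.44 and 9.57 points. The threshold was 9.04-fold and is not equally strict in every library. Fisher's exact test called 0 receptor genes under every setting. Its smallest possible p was 0.0286 with all 7 libraries, which passes adjustment only if most genes reach it. With 1 library left out it was 0.0667 or 0.1, and without the 3 long lists 0.333, so these counts say nothing of stability. With lists of equal span 1 receptor gene had an unadjusted p under 0.05. The alternatives on long lists, ties, the fold threshold, unplaced genes, the recurrent genes, longer lists and ranks were chosen after seeing the data.

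With the replicate block, which leaves out stressed 9, the difference was 17.3 points in deposited and -0.79 in equal-size lists. These are the values without stressed 9, so the block adds no check of its own. The differences within same-numbered libraries ran from -23.2 to 49.4 points in deposited lists. In equal-size lists they ran from -1.79 to 0. The correlations between deviations of same-numbered libraries were -0.17, -0.21 and -0.33 in deposited lists. Each of these pairs joins a long list with a short one, so the values cannot show whether a pair shares a batch. In equal-size lists they were -0.035, -0.029 and -0.119. The numbers were not used as pairs. The number of reads behind each list is unknown, and an end without a region is one that was not detectable at that depth, not one shown to be closed.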
